A study of Homo sapiens with 4 samples.

Results

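The genes described here encode the ephrins, semaphorins, netrins and slits and their receptors, and they were followed in H1792, an established human lung cancer cell line, after treatment with ACBI1 or with its solvent DMSO. Members were taken by symbol: the Eph receptors and ephrins, the semaphorins of classes 3 to 7, the plexins, neuropilins 1 and 2, the netrins, the slits and the robo receptors. Of 61228 features counted, 64 carried such a symbol, and 56 of these had 10 or more counts in at least 2 libraries. RNA sequencing had been carried out on 4 libraries, 2 from cells kept for 96 h with DMSO and 2 from cells kept for 96 h with ACBI1, at a dose the labels write as 1 mM. All libraries came from the same line, whose genotype the labels give as WT. ACBI1 is a PROTAC, a molecule that links a target protein to the VHL ubiquitin ligase and so marks it for degradation. It acts on SMARCA2 and SMARCA4, which drive SWI/SNF complexes as they move nucleosomes, and on PBRM1, found in the PBAF version of these complexes. Proteins were not analysed here. The comparison asks which guidance transcripts changed in cells given the degrader.

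Guidance proteins were first described as cues that attract or repel growing axons, and in epithelial tumours they act on adhesion, migration and the growth of nearby vessels. Ephrins are bound to the membrane and activate Eph receptor tyrosine kinases on the neighbouring cell. Semaphorins act through plexins, and most of the secreted class 3 semaphorins need a neuropilin as the binding subunit of the receptor. Netrins bind DCC, neogenin and the UNC5 receptors, and slits bind robo receptors.

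Counts assigned to genes ranged from 64281850 to 86010100 per library. Transcripts of the degrader's targets, whose proteins it removes, were not called: the log2 change was 0.70 for SMARCA4 (SE 0.196, adjusted p = 0.0583), -0.40 for SMARCA2 (SE 0.171, adjusted p = 0.163) and 0.10 for PBRM1 (SE 0.168, adjusted p = 0.734). Among markers of the line's origin, the epithelial keratins KRT7, KRT8, KRT18 and KRT19 were present, CDH1 was at most at 0.222 CPM, and the lung markers NKX2-1 and SCGB1A1 had 0 counts in every library. Within each group the libraries differed well beyond counting error: chi-square over its degrees of freedom was 144 (DMSO) and 94.9 (ACBI1). Nothing in the labels says whether they came from separate cultures, so p-values measure the spread between these libraries, which may be technical.

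Guidance transcripts were mostly lower with ACBI1 where they changed. Levels are given in CPM, the count scaled to library size after TMM scaling. Genes with a Benjamini-Hochberg adjusted p under 0.05 in edgeR's quasi-likelihood test, run on 19159 genes, are named as called. Of the 56 guidance genes tested, 24 (42.9%) were called, 20 lower and 4 higher, while 17.4% of all genes tested were called, 10.6% lower and 6.75% higher. An unadjusted p under 0.05 was found for 29 of the 56, and for 33.9% of all genes tested. Log2 changes had a median of -0.46 in the 56 and of 0.01 over the whole table. Of these genes, 3 (EPHB3, SEMA4A and PLXNA4) reached the count minimum through the DMSO libraries alone and 1 (EPHA10) through the ACBI1 libraries alone. Among the 32 guidance genes that averaged 5 CPM or more over the 4 libraries, 14 were called (43.8%), 12 lower and 2 higher, beside 21.0% of the 11160 genes at that level. Of those called, NTN4 was above 5 CPM with DMSO alone and SEMA4D with ACBI1 alone. In 40 of the 56 genes the ACBI1 libraries lay on 1 side of both DMSO libraries, 30 below and 10 above. The same held for 63.2% of all genes tested, 32.2% below and 31.1% above.

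The remaining 8 guidance genes fell short of the count minimum: EPHA8, SEMA5A, SEMA5B, SEMA6A, SEMA6D, SLIT3, ROBO2 and ROBO4. Near the minimum, EPHA1 was kept with 9 and 13 counts under DMSO and 11 and 9 under ACBI1. ROBO4, the robo receptor of endothelial cells, stayed outside it with 8 and 4 counts against 1 and 0. SEMA6D had 0, 0, 0 and 1 counts.

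**Figure D1:**
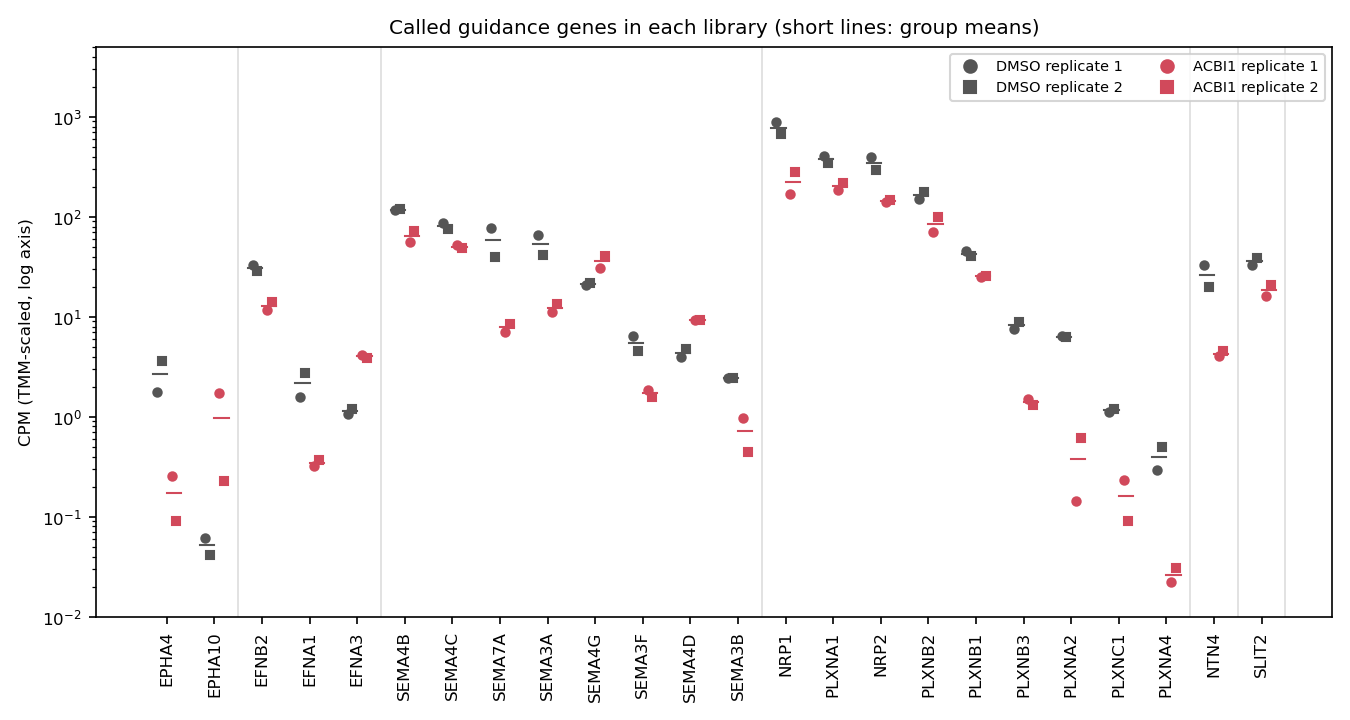
CPM on a log axis for the 24 called guidance genes, ordered by family and by level; grey marks are the DMSO libraries, red marks the ACBI1 libraries, circles replicate 1, squares replicate 2 and short lines the group means. The ACBI1 marks lie below the DMSO marks in 20 genes and above them in EPHA10, EFNA3, SEMA4D and SEMA4G.

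Neuropilins and plexins, the receptors of semaphorins, were lower as a group. Of 11 tested, 9 were called (81.8%, beside 17.4% of all genes), each of them lower. The other 2 also had negative log2 changes, and the median was -1.28. Of the 9 called, PLXNA4 reached the count minimum through the DMSO libraries alone. Markers of several cell types, epithelial ones among them, moved too in these libraries of the same line. The 7 fibroblast and mesenchymal markers summed to 4040 and 4660 CPM with DMSO and to 3040 and 3110 CPM with ACBI1. Of them, 4 were called lower (COL1A2, PDGFRA, LUM and DCN). VIM was most of each sum, at 3030 and 2680 CPM with DMSO and 2960 and 2840 CPM with ACBI1 (log2 change 0.02), so the sums say little of the 4. The 6 epithelial markers summed to 982 and 1040 CPM against 323 and 202 CPM, with 4 called lower, and KRT7 was most of the sum at 678 and 680 CPM with DMSO. EPCAM, another of the 6, lay the other way at 5.38 and 2.78 CPM against 15.6 and 4.84 CPM and was not called (log2 change 1.32, adjusted p = 0.179). The 5 endothelial markers summed to 13.2 and 48.6 CPM against 0.0112 and 0.0458 CPM, nearly all of it PECAM1, with ERG at 0 counts in every library. The 5 leukocyte markers stayed between 0.153 and 0.222 CPM in sum. Among neuroendocrine and neuronal markers, INSM1, NEUROD1 and STMN2 had 0 counts throughout, and SYP rose from 0.0737 and 0.181 CPM to 4.92 and 4.96 CPM. The part of these marker changes in the guidance results was not tested. In bulk RNA, fewer cells with a transcript and less of it per cell cannot be told apart.

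NRP1, the neuropilin that binds SEMA3A and also VEGF-A, was the guidance gene with the most reads. Its level was 879 and 677 CPM in DMSO replicates 1 and 2 and 168 and 278 CPM in ACBI1 replicates 1 and 2. It fell 3.48-fold, a log2 change of -1.80 (SE 0.292, adjusted p = 0.0134). The groups did not overlap, as in 63.2% of all genes tested. NRP2, the neuropilin preferred by SEMA3F, was at 400 and 294 CPM with DMSO and at 140 and 146 CPM with ACBI1. Its log2 change was -1.28 (SE 0.205, adjusted p = 0.0129). Per length of exon, the 2 neuropilins together stood at 105 and 79.9 CPM per kb with DMSO and at 24.7 and 34.7 CPM per kb with ACBI1, a ratio of 0.321. No test was run on such sums, since the smallest p that an exact permutation test can reach with 2 against 2 libraries is 0.333.

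Class A plexins carry the signal of neuropilin-bound semaphorins. PLXNA1 was the most abundant plexin per length, at 404 and 346 CPM with DMSO and 187 and 216 CPM with ACBI1. Its fall was 1.86-fold (log2 change -0.90, SE 0.181, adjusted p = 0.0245). PLXNA2 had similar values in the DMSO libraries, 6.45 and 6.26 CPM, and was near the lower end of the scale with ACBI1, at 0.145 and 0.610 CPM. The log2 change of PLXNA2 was -4.10 (SE 0.654, adjusted p = 0.0128), and leaving out ACBI1 replicate 1 gave -3.37, leaving out ACBI1 replicate 2 -5.45. PLXNA4 was rare, with 24 and 36 counts against 2 and 2, and was lower by a log2 change of -3.85 (SE 0.657, adjusted p = 0.0155). PLXNA3 was at 34.0 and 35.9 CPM with DMSO and 26.5 and 31.8 CPM with ACBI1. That difference (log2 change -0.26, SE 0.170) was not called (adjusted p = 0.332). Among the 4 class A plexins, the main one, PLXNA1, had a called 1.86-fold fall, and the rarer PLXNA2 and PLXNA4 had larger called falls. PLXNA4 reached the count minimum through the DMSO libraries alone, a selection that favours a fall.

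Among the class B plexins, PLXNB1 and PLXNB2 bind membrane semaphorins of class 4. PLXNB2 was at 150 and 179 CPM with DMSO and 70.4 and 99.8 CPM with ACBI1 (log2 change -0.95, SE 0.221, adjusted p = 0.0353). PLXNB1, the receptor of SEMA4D, was at 45.3 and 40.5 CPM against 25.0 and 25.7 CPM (log2 change -0.76, SE 0.158, adjusted p = 0.0270). PLXNB3 was at 7.48 and 8.91 CPM against 1.52 and 1.30 CPM, a 5.81-fold fall (log2 change -2.54, SE 0.295, adjusted p = 0.00580). The groups were apart for all 3 class B plexins, as they were for 63.2% of all genes tested. Of the exonic length of PLXNB3, 20.4% overlaps SRPK3, which was itself lower (log2 change -3.07, adjusted p = 0.0349) but had at most 25 counts per library, against 609 and 641 for PLXNB3 with DMSO.

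PLXNC1 is the receptor of SEMA7A. It had 91 and 86 counts with DMSO and 21 and 6 with ACBI1, or 1.12 and 1.20 CPM against 0.235 and 0.0915 CPM. The log2 change of PLXNC1 was -2.78 (SE 0.527, adjusted p = 0.0210), or -3.63 without ACBI1 replicate 1. PLXND1, which can bind SEMA3E without a neuropilin, was at 34.9 and 43.5 CPM with DMSO and 35.2 and 26.5 CPM with ACBI1. Its groups overlapped and it was not called (log2 change -0.34, SE 0.209, adjusted p = 0.298). Summed per length, the 9 plexins were at 70.5 and 69.9 CPM per kb with DMSO and at 35.5 and 41.8 CPM per kb with ACBI1, a ratio of 0.551. PLXNA1 made up 48.9% of that sum with DMSO and 47.7% with ACBI1 on average, and PLXNB2 32.3% and 30.1%.

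Several of these calls rested on having all 4 libraries. Fitted on 3 libraries, with the lone library of a group assumed to vary like the pair of the other group, 8 of the 9 neuropilin and plexin calls were kept without DMSO replicate 1 and 9 without DMSO replicate 2. Without ACBI1 replicate 1, 4 were kept (NRP1, PLXNA2, PLXNB3 and PLXNC1), and the other 5 had adjusted p from 0.0611 to 0.171. Without ACBI1 replicate 2, 5 were kept (NRP1, NRP2, PLXNA2, PLXNB2 and PLXNB3), and the other 4 had adjusted p from 0.0562 to 0.104. PLXNB1, the call lost without DMSO replicate 1, then had an adjusted p of 0.0627. No called guidance gene changed direction in any of these fits.

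**Figure D2:**
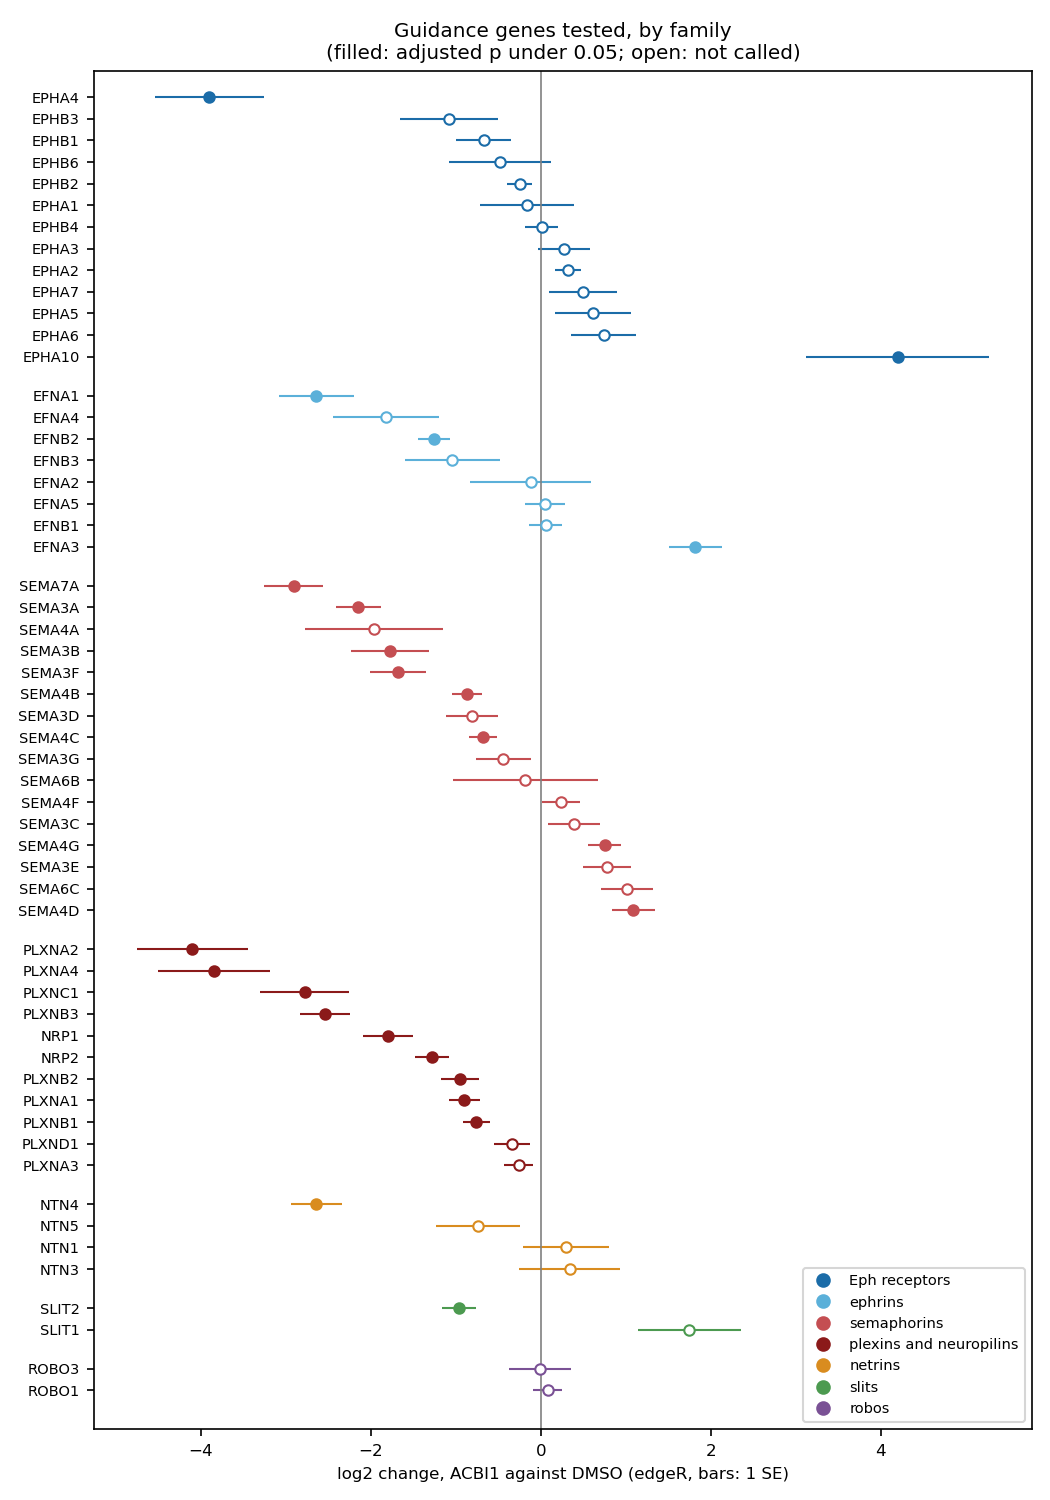
Log2 change (ACBI1 against DMSO, horizontal axis) with 1 SE for the 56 guidance genes tested, grouped by family; filled points had an adjusted p under 0.05 and open points did not. The 11 neuropilins and plexins all lie left of 0, from -0.26 for PLXNA3 to -4.10 for PLXNA2. Filled points are 2 of the 13 Eph receptors (15.4%), beside 17.4% of all genes called.

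Semaphorins, the ligands, changed in both directions. Of 16 tested, 8 were called, 6 lower and 2 higher, with a median log2 change of -0.56. Among the 7 secreted class 3 semaphorins, SEMA3A, SEMA3B and SEMA3F were called lower (42.9%, beside 17.4% of all genes called) and none was called higher. SEMA3A, a repellent cue that signals through NRP1 and class A plexins, was at 66.4 and 41.8 CPM with DMSO and at 11.2 and 13.3 CPM with ACBI1. It fell 4.42-fold (log2 change -2.15, SE 0.264, adjusted p = 0.00673). SEMA3F, which acts through NRP2, was at 6.44 and 4.53 CPM against 1.87 and 1.56 CPM (log2 change -1.68, SE 0.330, adjusted p = 0.0230). SEMA3B was at 2.46 CPM in each DMSO library and at 0.983 and 0.442 CPM with ACBI1. Its log2 change was -1.77 (SE 0.459, adjusted p = 0.0475), or -2.46 without ACBI1 replicate 1, and scaling by library size alone ended its call (adjusted p = 0.0543). SEMA3B and SEMA3F are known as candidate tumour suppressors of the short arm of chromosome 3 in lung cancer.

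The class 3 semaphorin with the highest level was not among those called. SEMA3C was at 164 and 99.5 CPM with DMSO and at 209 and 137 CPM with ACBI1, and the groups overlapped (log2 change 0.39, SE 0.310, adjusted p = 0.426). SEMA3E was at 17.7 and 10.5 CPM against 22.4 and 26.1 CPM (log2 change 0.78, adjusted p = 0.112), and was called when DMSO replicate 1 was left out (1.20, adjusted p = 0.00852). SEMA3D was at 12.1 and 15.2 CPM against 9.66 and 5.90 CPM (log2 change -0.81, adjusted p = 0.123), and SEMA3G was between 1.51 and 2.25 CPM in all libraries. Summed per length, class 3 semaphorin transcripts were at 39.1 and 25.2 CPM per kb with DMSO and 39.3 and 27.7 CPM per kb with ACBI1, so the sums overlapped. Their make-up differed. SEMA3A made up 18.1% and 17.7% of the sum in the DMSO libraries and 3.03% and 5.11% in the ACBI1 libraries. SEMA3C made up 67.0% and 62.9% against 84.9% and 78.6%.

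**Figure D3:**
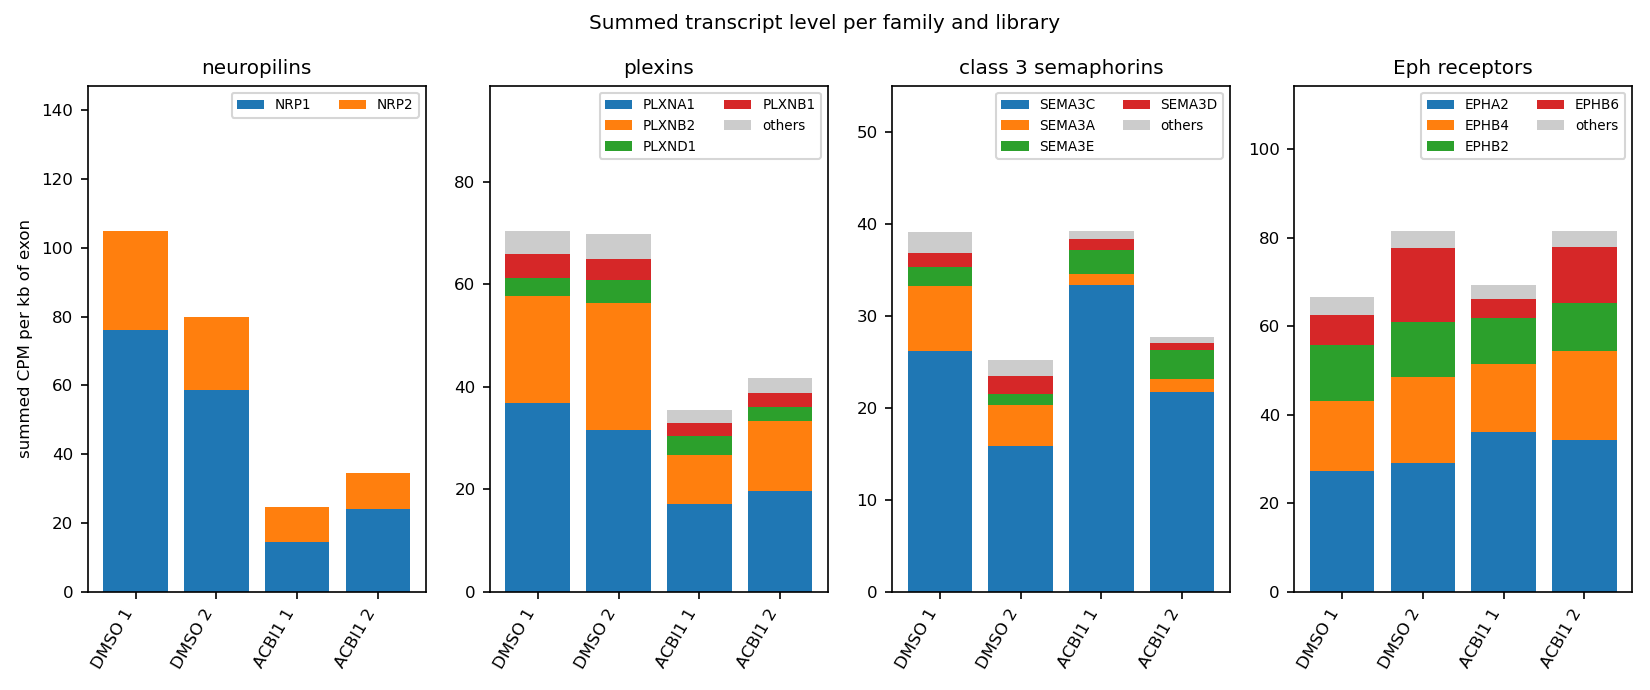
Summed CPM per kb of exonic length in each library for neuropilins, plexins, class 3 semaphorins and Eph receptors, stacked by gene with the 4 largest named. The neuropilin sum was 105 and 79.9 with DMSO and 24.7 and 34.7 with ACBI1, while the sums of class 3 semaphorins and of Eph receptors overlapped between groups.

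Among the 9 tested semaphorins of classes 4, 6 and 7, which are held at the membrane, 3 were called lower and 2 higher. Together this was 55.6% called, beside 17.4% of all genes. SEMA7A is anchored by a lipid tail and binds PLXNC1 and integrins. It was at 78.0 and 39.6 CPM with DMSO and at 7.12 and 8.57 CPM with ACBI1, the largest fall among the semaphorins (7.50-fold, log2 change -2.91, SE 0.350, adjusted p = 0.00644). SEMA4B was at 116 and 119 CPM against 56.6 and 72.1 CPM (log2 change -0.87, SE 0.178, adjusted p = 0.0254). SEMA4C, a ligand of PLXNB2, was at 86.9 and 74.8 CPM against 52.3 and 48.6 CPM (log2 change -0.68, SE 0.160, adjusted p = 0.0370). These 3 genes and SEMA3C were the semaphorins with the highest levels per length with DMSO: 21.1 CPM per kb for SEMA3C, 16.8 for SEMA4B, 15.5 for SEMA7A and 13.1 for SEMA4C. With ACBI1 the order was SEMA3C (27.6), SEMA4B (9.19), SEMA4C (8.19) and SEMA4G (6.82), with SEMA7A at 2.06 CPM per kb.

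The semaphorins called higher were SEMA4D and SEMA4G. SEMA4D, the ligand of PLXNB1, rose from 4.0 and 4.74 CPM to 9.29 and 9.35 CPM, 2.13-fold (log2 change 1.09, SE 0.249, adjusted p = 0.0336), while its receptor PLXNB1 was called lower. SEMA4G was at 20.6 and 21.9 CPM with DMSO and 30.7 and 40.9 CPM with ACBI1 (log2 change 0.75, SE 0.196, adjusted p = 0.0479). It shares 27.4% of its exonic length with other genes, among them MRPL43 (log2 change -0.07, adjusted p = 0.790), and limma-voom did not call it (adjusted p = 0.0578). SEMA6C was at 3.50 and 5.14 CPM against 7.69 and 9.73 CPM. It was not called in the fit reported (log2 change 1.01, adjusted p = 0.0711). DESeq2 called SEMA6C (adjusted p = 0.00996), and so did edgeR without a filter on low counts (0.0184) or when blocked by replicate (0.00198). The blocked fit called 7909 genes in all, against 3331 in the fit reported. The log2 change of SEMA6C was 1.31 when DMSO replicate 2 was left out. SEMA6B was at 4.30 and 20.0 CPM with DMSO and 4.17 and 17.3 CPM with ACBI1, so that its libraries differed more within groups than between them. SEMA4F lay between 18.0 and 27.7 CPM with overlapping groups, and SEMA4A had at most 33 counts per library.

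Of the 8 semaphorin calls, SEMA3A and SEMA7A were kept whichever library was left out. Without DMSO replicate 1, SEMA4C, SEMA4D and SEMA4G were not called (adjusted p from 0.0721 to 0.0901), and without DMSO replicate 2 SEMA3B and SEMA4G were not (0.0512 and 0.0733). Without ACBI1 replicate 1 the calls of SEMA3F, SEMA4B, SEMA4C, SEMA4D and SEMA4G were lost (adjusted p from 0.0654 to 0.153). Without ACBI1 replicate 2 those of SEMA3B, SEMA3F, SEMA4C, SEMA4D and SEMA4G were lost (0.0810 to 0.253).

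Upstream windows of member genes were searched for 3 motifs on either strand: TGANTCA, bound by AP-1 factors, GGAATG, bound by TEAD factors, and the kappa B motif of NF-kB. RefSeq promoter windows (GRCh38.p14, 300 bases, from 250 before to 50 after a transcript start) were at hand for 56 of the 64 symbols, in 88 windows, since a gene can have several starts. TGANTCA was in 1 of these 88 windows and in 7.71% of all 35116 windows. GGAATG was in 10 of the 88 windows and in 14.0% of all, and the kappa B motif was in 0 of the 88 and in 1.91% of all. Among the 31 windows of 18 genes called lower, 6 windows of 5 genes held GGAATG and 1 held TGANTCA. A match is a string of letters and not a binding site. The 250 bases before a start are shown for 4 genes called lower, the neighbours SEMA3F and SEMA3B and 2 plexins. Motif letters are in capitals (GGAATG or its reverse complement CATTCC in the first 3, TGANTCA in PLXNC1). All 4 starts lie inside the genes as annotated in GENCODE 29. There the genes begin at 50155045 (SEMA3F), 50267558 (SEMA3B), 153764196 (PLXNB3) and 94148723 (PLXNC1).
SEMA3F (chr3:50155074-50155323, plus strand): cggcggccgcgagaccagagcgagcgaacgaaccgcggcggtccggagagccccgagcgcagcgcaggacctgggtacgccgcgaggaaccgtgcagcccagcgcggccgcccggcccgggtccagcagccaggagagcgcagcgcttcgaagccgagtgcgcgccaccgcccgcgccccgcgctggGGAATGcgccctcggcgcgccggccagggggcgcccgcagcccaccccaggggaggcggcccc
SEMA3B (chr3:50267402-50267651, plus strand): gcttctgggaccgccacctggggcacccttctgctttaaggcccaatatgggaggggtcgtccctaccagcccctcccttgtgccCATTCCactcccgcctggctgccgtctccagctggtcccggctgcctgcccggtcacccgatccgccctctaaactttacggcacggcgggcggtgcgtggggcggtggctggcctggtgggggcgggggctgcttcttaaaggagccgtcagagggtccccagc
PLXNB3 (chrX:153763999-153764248, plus strand): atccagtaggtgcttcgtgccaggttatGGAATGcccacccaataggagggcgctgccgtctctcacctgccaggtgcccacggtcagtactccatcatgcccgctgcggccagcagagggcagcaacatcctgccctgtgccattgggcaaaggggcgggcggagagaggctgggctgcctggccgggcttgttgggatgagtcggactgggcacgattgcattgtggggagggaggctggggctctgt
PLXNC1 (chr12:94262369-94262618, plus strand): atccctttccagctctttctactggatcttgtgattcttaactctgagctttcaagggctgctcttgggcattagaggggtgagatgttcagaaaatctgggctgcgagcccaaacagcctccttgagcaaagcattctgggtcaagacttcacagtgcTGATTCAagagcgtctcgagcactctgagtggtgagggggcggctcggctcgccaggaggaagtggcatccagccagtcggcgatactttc

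Eph receptors were called about as often as genes in general. Of 13 tested, 2 (15.4%, beside 17.4% of all genes) were called, EPHA4 lower and EPHA10 higher, and the median log2 change was 0.01, as over all genes. Whether the families differ in their response was not tested. EPHA2, a receptor abundant in many carcinomas, had the highest level of the family per length. It was at 114 and 121 CPM with DMSO and at 150 and 143 CPM with ACBI1, with no overlap but without a call (log2 change 0.32, SE 0.153, adjusted p = 0.201). EPHB2 was at 158 and 157 CPM against 129 and 135 CPM (log2 change -0.25, adjusted p = 0.295). EPHB4, the receptor of EFNB2, was at 102 and 124 CPM against 99.6 and 128 CPM (log2 change 0.01, SE 0.198, adjusted p = 0.980). EPHB6, whose kinase domain is inactive, was at 35.9 and 89.2 CPM with DMSO and at 22.1 and 67.7 CPM with ACBI1. Its replicates differed more than its groups (log2 change -0.48, SE 0.601, adjusted p = 0.624). The sign of EPHB6 turned when DMSO replicate 2 (0.32) or ACBI1 replicate 1 (0.12) was left out, and the value was -1.51 when ACBI1 replicate 2 was. Replicate 1 was the lower in both groups. With the replicate number as a block in edgeR, the log2 change of EPHB6 was -0.55 (adjusted p = 0.00538). That fit called 7909 genes in all, against 3331 in the fit reported, and the labels tie the replicate numbers to nothing.

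Summed per length, Eph receptor transcripts were at 66.5 and 81.6 CPM per kb with DMSO and 69.4 and 81.5 CPM per kb with ACBI1, a ratio of 1.02. EPHA2 made up 38.4% of the sum with DMSO and 47.1% with ACBI1 on average, EPHB4 23.8% and 23.4%, and EPHB2 17.2% and 14.1%. EPHA2 alone made up 93.0% and 93.6% of the EphA transcripts. The called Eph receptors were both rare. EPHA4 was at 1.77 and 3.64 CPM with DMSO and at 0.257 and 0.0915 CPM with ACBI1, a 15-fold fall (log2 change -3.90, SE 0.637, adjusted p = 0.0136), with -3.30 without DMSO replicate 2 and -4.85 without ACBI1 replicate 1. EPHA10, another receptor without kinase activity, had 5 and 3 counts with DMSO and 153 and 15 with ACBI1. The log2 change of EPHA10 was 4.20 (SE 1.08, adjusted p = 0.0466), but without ACBI1 replicate 1 it was 2.11 with no call (adjusted p = 0.261), without ACBI1 replicate 2 it was 4.99, and limma-voom did not call it (adjusted p = 0.10). EPHA3, EPHA5, EPHA6, EPHA7 and EPHB1 were between 0.467 and 14.8 CPM and were not called, nor were EPHA1 and EPHB3, which stayed under 0.2 CPM.

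Ephrins, the ligands of the Eph receptors, had 3 calls among 8 tested (37.5%, beside 17.4% of all genes). EFNA1, the usual ligand of EPHA2, was at 1.57 and 2.74 CPM with DMSO and at 0.324 and 0.366 CPM with ACBI1. It fell 6.23-fold (log2 change -2.64, SE 0.439, adjusted p = 0.0145). EFNB2, the transmembrane ligand of EPHB4, was at 32.7 and 29 CPM against 11.8 and 14.0 CPM (log2 change -1.26, SE 0.188, adjusted p = 0.0108). Another annotated gene covers 26.2% of the exonic bases of EFNB2. EFNA3 went the other way, from 1.07 and 1.20 CPM to 4.12 and 3.89 CPM (3.54-fold, log2 change 1.82, SE 0.310, adjusted p = 0.0154). Another annotated gene, AL691442.1, overlaps 44.7% of the exonic length of EFNA3 and 15% of that of EFNA4, so the counts of these 2 genes carry some uncertainty. EFNA4 was at 2.01 and 4.14 CPM against 0.447 and 1.31 CPM and was not called (log2 change -1.82, SE 0.621, adjusted p = 0.0973), although DESeq2 called it (adjusted p = 0.0121). Leaving out DMSO replicate 1 or ACBI1 replicate 2 gave EFNA4 a call (log2 changes -2.25 and -2.79, adjusted p 0.0114 and 0.0394), and leaving out DMSO replicate 2 or ACBI1 replicate 1 gave -1.21 and -1.22 with no call. Without ACBI1 replicate 1 none of the 3 ephrin calls was kept (adjusted p from 0.0529 to 0.0570), and without any other library all 3 were.

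The other 2 ephrins above 5 CPM were not called. EFNA5, which had the highest level per length, was at 44.3 and 65.9 CPM with DMSO and 50.4 and 63.5 CPM with ACBI1 (log2 change 0.05, SE 0.237, adjusted p = 0.911). EFNB1 was at 13.8 and 13.7 CPM against 13.6 and 15.1 CPM (log2 change 0.06, adjusted p = 0.855). EFNA2 and EFNB3 were under 1 CPM in every library. The make-up of the ephrin-B transcripts differed between groups: EFNB2 made up 60.4% and 56.7% of the ephrin-B sum per length with DMSO and 36.0% and 37.4% with ACBI1, and EFNB1 made up 38.5% and 40.5% against 62.4% and 61.3%. Ephrin-A transcripts summed to 10.6 and 16.8 CPM per kb with DMSO and to 11.6 and 14.6 CPM per kb with ACBI1.

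NTN4 was the one netrin with more than 1 CPM. This secreted protein is related to laminins and binds to basement membranes. It was at 33.2 and 19.9 CPM with DMSO and at 4.02 and 4.50 CPM with ACBI1, a 6.23-fold fall (log2 change -2.64, SE 0.302, adjusted p = 0.00561) that was called whichever library was left out. NTN1, NTN3 and NTN5 had 8 to 23 counts per library and were not called. Their log2 changes were 0.30, 0.34 and -0.74.

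SLIT2, the main slit in these cells, was at 33.2 and 39.2 CPM with DMSO and at 16.1 and 21.0 CPM with ACBI1. It fell 1.95-fold (log2 change -0.96, SE 0.203, adjusted p = 0.0275), but was not called without ACBI1 replicate 1 (adjusted p = 0.142). SLIT1 had 12 and 5 counts against 43 and 17 and was not called (log2 change 1.75, adjusted p = 0.10). Neither robo receptor tested was called. ROBO1 was at 37.4 and 30.4 CPM with DMSO and 35.2 and 36.4 CPM with ACBI1 (log2 change 0.08, SE 0.172, adjusted p = 0.786), and ROBO3 was at 14.8 and 10.0 CPM against 16.2 and 8.5 CPM (log2 change -0.01, adjusted p = 0.990). Groups overlapped for ROBO1 and for ROBO3.

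Set side by side, known ligands and receptors changed together in some cases and not in others. The pairs given are examples and not a full list. SEMA7A and PLXNC1 were both called lower (log2 changes -2.91 and -2.78), as were SEMA3A and NRP1 (-2.15 and -1.80) and SEMA3F and NRP2 (-1.68 and -1.28). The same held for SEMA4C and PLXNB2 (-0.68 and -0.95). SEMA3C, the class 3 semaphorin with the highest level, was not called (0.39), while both neuropilins were called lower. For EFNA1 and EPHA2 (-2.64 and 0.32), EFNB2 and EPHB4 (-1.26 and 0.01) and SLIT2 and ROBO1 (-0.96 and 0.08), the ligand was called lower and the receptor was not called. SEMA4D and PLXNB1 were called in opposite directions (1.09 and -0.76), and neither SEMA3E nor PLXND1 was called (0.78 and -0.34). The difference between ligand and receptor was not tested for any pair.

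Genes that work with these ligands and receptors were taken from 2 lists. Both lists were chosen with earlier results of these data known, so their shares of calls only describe them. Of 25 co-receptors and other surface proteins, 15 were tested, with 6 called (40.0%, beside 17.4% of all genes), 4 lower and 2 higher, and a median log2 change of -0.70. Among the 6, FLRT1 reached the count minimum through the DMSO libraries alone and UNC5A through the ACBI1 libraries alone. UNC5B, a netrin receptor that can trigger cell death without its ligand, was at 172 and 47.0 CPM with DMSO and at 4.11 and 3.16 CPM with ACBI1. The log2 change of UNC5B was -4.91 (SE 0.649, adjusted p = 0.00791), and it moved to -3.68 when DMSO replicate 1 was left out and to -5.56 when DMSO replicate 2 was. DCC, the attractive netrin receptor, had at most 2 counts in a library. UNC5A went from 1 and 2 counts with DMSO to 14 in each ACBI1 library (log2 change 3.12, adjusted p = 0.0357). Leaving out DMSO replicate 2 moved it to 3.74, and UNC5A was called neither by DESeq2 (adjusted p = 0.103) nor with any library left out (adjusted p from 0.0950 to 0.185). NRCAM, a cell adhesion molecule found in semaphorin receptor complexes, was at 193 and 225 CPM against 89.0 and 97.9 CPM (log2 change -1.16, adjusted p = 0.0104, or 0.0615 without ACBI1 replicate 1). FLRT1, a membrane protein of a family that binds UNC5 receptors, fell from 4.34 and 1.46 CPM to 0.0223 and 0.0915 CPM (log2 change -5.72, adjusted p = 0.0108). Leaving out 1 library at a time gave -6.93 (ACBI1 replicate 2) to -4.73 (DMSO replicate 1) for FLRT1. NTNG2, a membrane-bound netrin relative, was at 7.98 and 9.10 CPM against 4.31 and 3.58 CPM (log2 change -1.11, adjusted p = 0.0369), with adjusted p from 0.101 to 0.153 without DMSO replicate 2 or either ACBI1 library. SDC1, a heparan sulphate proteoglycan, rose from 58.9 and 61.7 CPM to 96.0 and 120 CPM (log2 change 0.84, adjusted p = 0.0264, or 0.133 without ACBI1 replicate 2).

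Of 52 cytoplasmic effectors, 47 were tested, with 13 called (27.7%, beside 17.4% of all genes), 6 lower and 7 higher, and a median log2 change of 0.09. The share called lower was close to the 10.6% over all genes, and the share called higher was above the 6.75% over all genes. MICAL2, an enzyme that oxidises actin and belongs to a family that binds plexins, fell from 448 and 441 CPM to 137 and 151 CPM (log2 change -1.62, adjusted p = 0.00431). DPYSL2, which carries the semaphorin 3A signal to microtubules, was at 105 and 178 CPM against 23.5 and 47.7 CPM (log2 change -1.99, adjusted p = 0.0249), or -2.60 without ACBI1 replicate 2 and not called without ACBI1 replicate 1 (adjusted p = 0.0503). LIMK1, the kinase that inactivates cofilin, was at 153 and 208 CPM against 57.3 and 75.6 CPM (log2 change -1.44, adjusted p = 0.0129). RND1, a GTPase that binds plexins, fell from 3.22 and 7.14 CPM to 0.614 and 0.961 CPM (log2 change -2.72, adjusted p = 0.0195), and leaving out DMSO replicate 2 gave -2.04. ABLIM3, an actin-binding LIM protein, was at 145 and 83.6 CPM against 25.3 and 20.2 CPM (log2 change -2.33, adjusted p = 0.00732). TNS2, a tensin of focal adhesions, was at 13.1 and 30.6 CPM against 5.47 and 5.08 CPM (log2 change -2.05, adjusted p = 0.0243), and leaving out DMSO replicate 2 gave -1.32. Without ACBI1 replicate 1, LIMK1, RND1 and TNS2 were not called (adjusted p 0.0550, 0.0626 and 0.0637), and TNS2 was not called without ACBI1 replicate 2 either (0.0578).

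The 7 effectors called higher had log2 changes from 0.70 to 1.14. They were not picked by the rule for naming genes, which took the 6 largest changes, and are named after their values were seen: CHN1, GRIP1, VAV2, TRIO, ARHGAP39, ABLIM1 and MICAL3. TRIO, a guanine nucleotide exchange factor, was at 423 and 454 CPM with DMSO and at 819 and 882 CPM with ACBI1 (log2 change 0.96, adjusted p = 0.0178). CHN1, which acts downstream of EphA receptors, was at 25.5 and 26.6 CPM against 59.6 and 55.4 CPM (log2 change 1.14, adjusted p = 0.00805). Of the 7, CHN1 alone was called whichever library was left out. TRIO, VAV2 and ARHGAP39 were not called without either ACBI1 library (adjusted p from 0.0550 to 0.0846). ABLIM1 and MICAL3 were called only without DMSO replicate 1, and GRIP1 only without DMSO replicate 2 (adjusted p from 0.0537 to 0.154 in the other fits). The general GTPases and kinases RHOA, RAC1, ROCK1 and ROCK2 were not called, with log2 changes from 0.14 to 0.26.

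**Figure D4:**
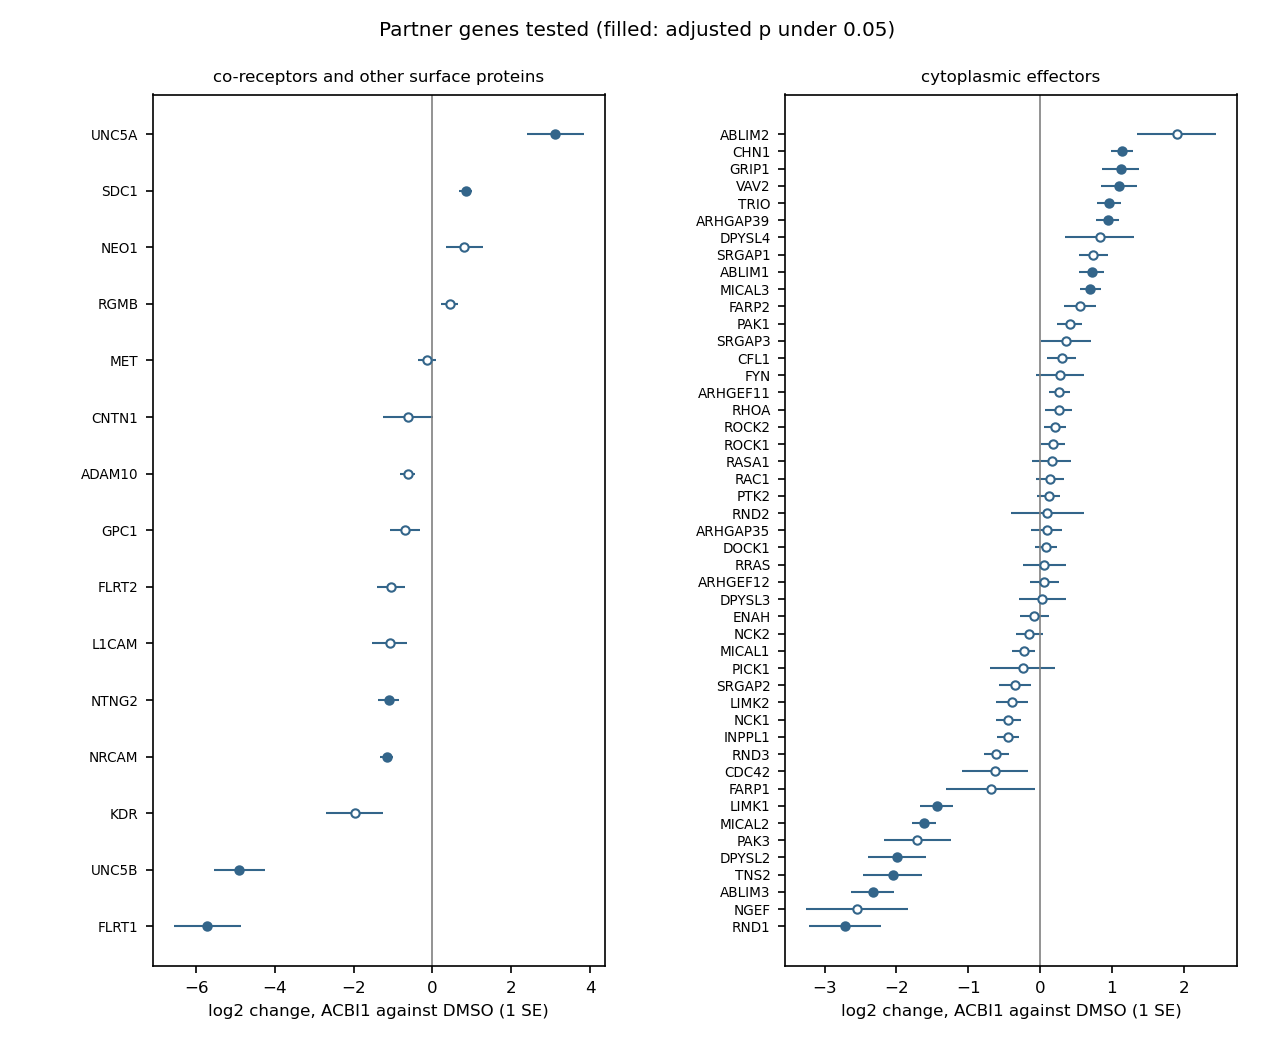
Log2 change (ACBI1 against DMSO, horizontal axis) with 1 SE for the tested partner genes, co-receptors and other surface proteins on the left and cytoplasmic effectors on the right; filled points had an adjusted p under 0.05. Called surface proteins lie between -5.72 (FLRT1) and 3.12 (UNC5A), and called effectors between -2.72 (RND1) and 1.14 (CHN1). FLRT1 reached the count minimum with DMSO alone and UNC5A with ACBI1 alone.

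The order of levels per length among all guidance genes differed between DMSO and ACBI1. With DMSO the highest were NRP1 at 67.5, PLXNA1 at 34.3, EPHA2 at 28.2, NRP2 at 25.0, PLXNB2 at 22.7 and SEMA3C at 21.1 CPM per kb. With ACBI1 they were EPHA2 at 35.3, SEMA3C at 27.6, NRP1 at 19.4, PLXNA1 at 18.4 and EPHB4 at 17.7 CPM per kb. Within the DMSO order, NRP1 (76.3 and 58.7) lay above PLXNA1 (36.9 and 31.6) in both libraries, and PLXNA1 above EPHA2 (27.3 and 29.1). NRP2, PLXNB2 and SEMA3C overlapped each other in their DMSO libraries. Within the ACBI1 order, EPHA2 (36.1 and 34.4) lay above SEMA3C (33.4 and 21.8), while SEMA3C, NRP1 (14.6 and 24.1), PLXNA1 (17.1 and 19.7) and EPHB4 (15.5 and 20.0) overlapped with at least 1 other of these. These levels use the exonic length of all annotated transcripts, which can exceed the length of the transcripts present in the cells.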

How the data were processed

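Counts of RNA-seq reads per gene symbol were used as deposited, 1 table per library, not normalized and in the layout of htseq-count. Per the submitters' processing notes, TopHat2 2.1.1, HTSeq 0.11.0 and the build hg38 were used; the annotation, strand setting and RNA selection are not given in the sources used here. Without a stated strand setting, reads of overlapping or antisense genes can be lost or misassigned. The 5 lines for reads given to no gene stayed out of library sizes and tests; gene counts were 84.6% to 86.1% of the reads listed.

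Group and replicate number came from the sample titles. Genes passing edgeR's filterByExpr (minimum count 10, minimum total 15) were scaled by TMM; the test was edgeR's (4.0.16, R 4.3.3, glmQLFit, glmQLFTest, two-sided) on treatment alone, with adjustment over all 19159 genes. SE is the log2 change divided by the square root of F. Alternatives were other scalings and filters, DESeq2 1.42.0, limma-voom (limma 3.58.1), a replicate block, stricter thresholds and each library left out in turn; scripts were tested on simulated counts. Exonic length, overlap and coordinates came from GENCODE 29 (GRCh38), which held all 64 members by symbol, and promoters from RefSeq (GRCh38.p14).

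Full statistics are given for called members and for the member of each family with the highest level per length; partner genes are named where called and among the 6 that changed most in their list, with exceptions marked. The members and lists were chosen with earlier results of these data known.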

Additional observations from a re-analysis of the deposited data

How the results depend on the processing

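The number of guidance genes called was 22 to 30 under other scalings, without a filter on low counts, with DESeq2 and with limma-voom, beside 24 in the fit reported. It was 14 where a mean of at least 5 CPM was required, which leaves 32 of them to test, and 4 at an adjusted p under 0.01 (SEMA7A, SEMA3A, PLXNB3 and NTN4). Of the 24, 21 were called in every one of the 7 fits on all libraries without a block in which they were tested, the exceptions being EPHA10, SEMA3B and SEMA4G, and 0 changed direction. A further 6 genes were called in at least 1 of these fits: EFNA4, SEMA3D, SEMA3E, SEMA4A, SEMA6C and SLIT1. Among uncalled guidance genes, 13 changed sign under some alternative: EPHA1, EPHA3, EPHA7, EPHB4, EPHB6, EFNA2, EFNA5, EFNB1, SEMA6B, NTN1, NTN3, ROBO1 and ROBO3. With 1 library left out, 9 to 23 guidance genes, 7 to 22 partner genes and 1379 to 4292 of all genes were called. The lowest of each came without ACBI1 replicate 1, and 2584 of all genes were called without DMSO replicate 2. The median log2 change of guidance genes ranged from -0.62 to -0.26 over these fits and was -0.32 with the 5 CPM filter. Partner genes numbered 19 calls, and 4 at an adjusted p under 0.01. For all genes, 3331 calls became 5518 without a filter and 783 at 0.01. Under scaling by library size only, 51.5% of all calls were lower, against 61.2% with TMM; for guidance genes the share was 82.6% against 83.3%.

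The replicate numbers are shared by the groups but the labels tie them to nothing. Deviations of same-numbered libraries from their group means had a correlation of 0.442 across genes. With the replicate number as a block, 7909 genes, 33 guidance genes (25 lower, 8 higher) and 34 partner genes were called. All 24 guidance calls were kept, and 9 were added: EPHB1, EPHB6, EFNA4, SEMA3C, SEMA3D, SEMA3E, SEMA4A, SEMA6C and SLIT1. Depth limits the rare members: 3 counts in a library correspond to 0.0335 to 0.0458 CPM.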

Other observations

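Some guidance genes lie next to each other on the chromosomes, and neighbours did not always change alike (coordinates from GENCODE 29, GRCh38). On chromosome 1, EFNA4 (155063731 to 155069553), EFNA3 (155078872 to 155087538) and EFNA1 (155127460 to 155134857) lie in that order on the plus strand, with gaps of 9.32 kb and 39.9 kb. EFNA1 was called lower (log2 change -2.64), EFNA3 between them was called higher (1.82), and EFNA4 was not called (-1.82). On chromosome 3, SEMA3F (50155045 to 50189075) and SEMA3B (50267558 to 50277546) are 78.5 kb apart and were both called lower (-1.68 and -1.77). On chromosome 7, SEMA3E (83363238 to 83649113), SEMA3A (83955777 to 84492724) and SEMA3D (84995553 to 85186855) follow each other on the minus strand, with gaps of 307 kb and 503 kb. SEMA3A was called lower (-2.15), while SEMA3E (0.78) and SEMA3D (-0.81) were not called.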
